A study of Homo sapiens with 8 samples.

Results

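The IL-1 family genes described here are 8 genes chosen by symbol from the 25369 genes of the count table. They are the ligands IL1A, IL1B and IL18, the receptor antagonist IL1RN, the signalling receptor IL1R1, its coreceptor IL1RAP, the decoy receptor IL1R2 and the protease CASP1. Each symbol matched 1 row, and all 8 genes passed the filter on low counts that left 17714 genes for testing. The choice had no threshold, but it was made with earlier comparisons of these libraries known, in which IL1A was higher in the BRCA1-null cells and after entinostat. The counts and differences of the 8 genes are therefore a description and not independent evidence.

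RNA-seq of poly(A) RNA was done in UWB1.289 cells, an ovarian cancer line whose BRCA1 gene carries a truncating mutation (BRCA1-null), and in UWB1.289 cells transduced with BRCA1 (BRCA1+), both obtained from ATCC. Each was treated for 24 h with 0.5 µM entinostat, which blocks HDAC1 and HDAC3, class I enzymes that remove acetyl groups from histones, or with its solvent DMSO. The 4 groups, each of 2 libraries, are called BRCA1+ DMSO, BRCA1+ entinostat, BRCA1-null DMSO and BRCA1-null entinostat. All 4 groups share the mutated endogenous BRCA1 gene of the 1 parental line, the line comparison rests on 1 transduced derivative, and whether the BRCA1-null cells carried an empty vector is not given in the sources used here. No source says that the 2 libraries of a group came from separate cultures, so the p-values measure the spread between these libraries, which may be technical.

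IL-1 alpha and IL-1 beta bind the receptor IL1R1, which recruits IL1RAP and signals through MYD88 and the IRAK kinases to NF-kB. IL1RN occupies IL1R1 without signalling and IL1R2 binds the ligands without a signalling domain, so both act as brakes. CASP1, activated in inflammasomes, cleaves the precursors of IL-1 beta and IL-18, whereas the IL-1 alpha precursor is already active. Epithelial cells, ovarian carcinoma cells included, can express these ligands, although macrophages are the best known source of IL-1 beta.

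The total count per library ranged from 31900158 to 53549893. Levels are given as CPM (counts per 1000000 counts of the library, scaled by TMM). Levels of different genes are compared as RPKM (CPM per kilobase of the gene length in the table). Shares of the counts of the 8 genes and sums of markers are not scaled by length. A floor of 3 counts corresponded to 0.0552 to 0.0946 CPM across the libraries, and it covers counting error only. A gene was called changed when the edgeR quasi-likelihood test over all 17714 genes gave a Benjamini-Hochberg adjusted p under 0.05. BRCA1 itself, counted without separating the introduced copy from the endogenous mutated one, held 98.9 and 92.3 CPM in the BRCA1+ DMSO libraries, 133 and 118 CPM in the BRCA1+ entinostat libraries, 21.0 and 22.4 CPM in the BRCA1-null DMSO libraries, and 17.6 and 19.2 CPM in the BRCA1-null entinostat libraries, in the order the labels give. The epithelial and Müllerian markers (EPCAM, keratins, PAX8, MUC16, MSLN and WT1) summed to between 13576 and 17736 CPM, and 7 of the 8 were over 1 CPM on average in every group, with WT1 under it.

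The genes of the IL-1 family lie in clusters. On the hg19 build, IL1A (chromosome 2, 113531492 to 113542971, minus strand), IL1B (113587337 to 113594356, minus strand) and IL1RN (113875470 to 113891593, plus strand) share a cluster on chromosome 2. IL1R2 (102608306 to 102644884) and IL1R1 (102686836 to 102796334), both on the plus strand, lie in a second cluster on the same chromosome. IL1RAP is on chromosome 3 (190231840 to 190374986, plus strand), and IL18 (112013974 to 112034840) and CASP1 (104896237 to 104905884) are on the minus strand of chromosome 11. The listed span of 2 microRNA entries, MIR4435-1 and MIR4435-2, covers IL1R1 and IL1R2 on the same strand, and none of the other 6 genes overlaps another entry of the table.

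RefSeq promoter windows (GRCh38.p14, 250 bases before to 50 after a transcript start) were found for 6 of the 8 genes, 13 windows in all, and not for IL18 and CASP1. The first listed windows of the 3 genes of the ligand cluster are shown, since these 3 genes had the largest line differences of the 8 in DMSO. Capitals mark matches, on either strand, to the motifs searched: AP-1 (TGANTCA), GAS (TTCNNNGAA), the NF-kB motif and a TATA box (TATAAA). IL1A is chr2:112784444-112784743, minus strand, IL1B is chr2:112836730-112837029, minus strand, and IL1RN is chr2:113117721-113118020, plus strand.
IL1A: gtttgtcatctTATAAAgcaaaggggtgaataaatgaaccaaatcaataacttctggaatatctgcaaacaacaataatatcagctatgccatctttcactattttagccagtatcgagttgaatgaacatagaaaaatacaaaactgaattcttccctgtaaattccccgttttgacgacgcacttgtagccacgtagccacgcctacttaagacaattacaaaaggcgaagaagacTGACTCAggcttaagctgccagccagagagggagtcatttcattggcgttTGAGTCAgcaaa
IL1B: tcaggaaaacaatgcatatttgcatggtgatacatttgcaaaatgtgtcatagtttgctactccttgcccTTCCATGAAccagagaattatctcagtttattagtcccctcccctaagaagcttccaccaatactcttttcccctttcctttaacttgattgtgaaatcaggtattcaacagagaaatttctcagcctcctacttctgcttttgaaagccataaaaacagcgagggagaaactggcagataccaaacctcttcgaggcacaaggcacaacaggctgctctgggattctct
IL1RN: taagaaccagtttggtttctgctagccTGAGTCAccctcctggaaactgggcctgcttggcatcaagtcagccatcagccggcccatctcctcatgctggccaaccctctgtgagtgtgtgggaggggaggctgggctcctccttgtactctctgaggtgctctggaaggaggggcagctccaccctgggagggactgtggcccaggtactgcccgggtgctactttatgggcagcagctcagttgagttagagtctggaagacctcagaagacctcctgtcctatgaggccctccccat

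The IL1A window held 2 AP-1 matches, TGACTCA at bases -12 to -6 and TGAGTCA at bases 39 to 45 counted from the transcript start, and a TATAAA at -239 to -234. The IL1B window held 1 GAS match, TTCCATGAA, at -180 to -172, and the IL1RN window held 1 AP-1 match, TGAGTCA, at -223 to -217. Of the 35116 windows of this length in the RefSeq table, 7.71% held an AP-1 match, 7.66% a GAS match, 5.91% an NF-kB match and 11.5% a TATAAA. No window of the 6 genes held a match to the NF-kB motif. The matches are letters in a window and not measured binding sites.

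IL18, a ligand that drives interferon gamma production in lymphocytes, had the highest level per length of the 8 genes in every group, with a mean of 121 ± 7.95 RPKM (SD, n = 2) in BRCA1+ DMSO, 152 ± 7.65 in BRCA1+ entinostat, 75.5 ± 1.45 in BRCA1-null DMSO and 85.4 ± 6.67 in BRCA1-null entinostat. The order below it differed between the lines. In BRCA1+ DMSO it ran IL1R2 (10.2 RPKM), IL1RAP (4.19), IL1A (1.09), IL1B (0.598), IL1R1 (0.402), CASP1 (0.0537) and IL1RN (0.0428), and in BRCA1+ entinostat the order was the same. In BRCA1-null DMSO IL1A was second with 7.07 RPKM, ahead of IL1R2 (5.54), IL1RAP (4.58), IL1B (2.07), IL1RN (0.864), IL1R1 (0.646) and CASP1 (0.149), and in BRCA1-null entinostat it was second with 14.1 RPKM. Neighbours whose libraries overlapped, and so could not be ordered, were CASP1 and IL1RN in BRCA1+ DMSO, IL1RN and IL1R1 in BRCA1-null DMSO, and IL1R2 with IL1RAP and IL1B with IL1RN in BRCA1-null entinostat. Of the counts assigned to the 8 genes, IL18 took 70.7% to 72.8% in the BRCA1+ libraries and 47.0% to 57.4% in the BRCA1-null libraries, while IL1A took at most 4.65% in the former and at least 11.8% in the latter.

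**Figure D1:**
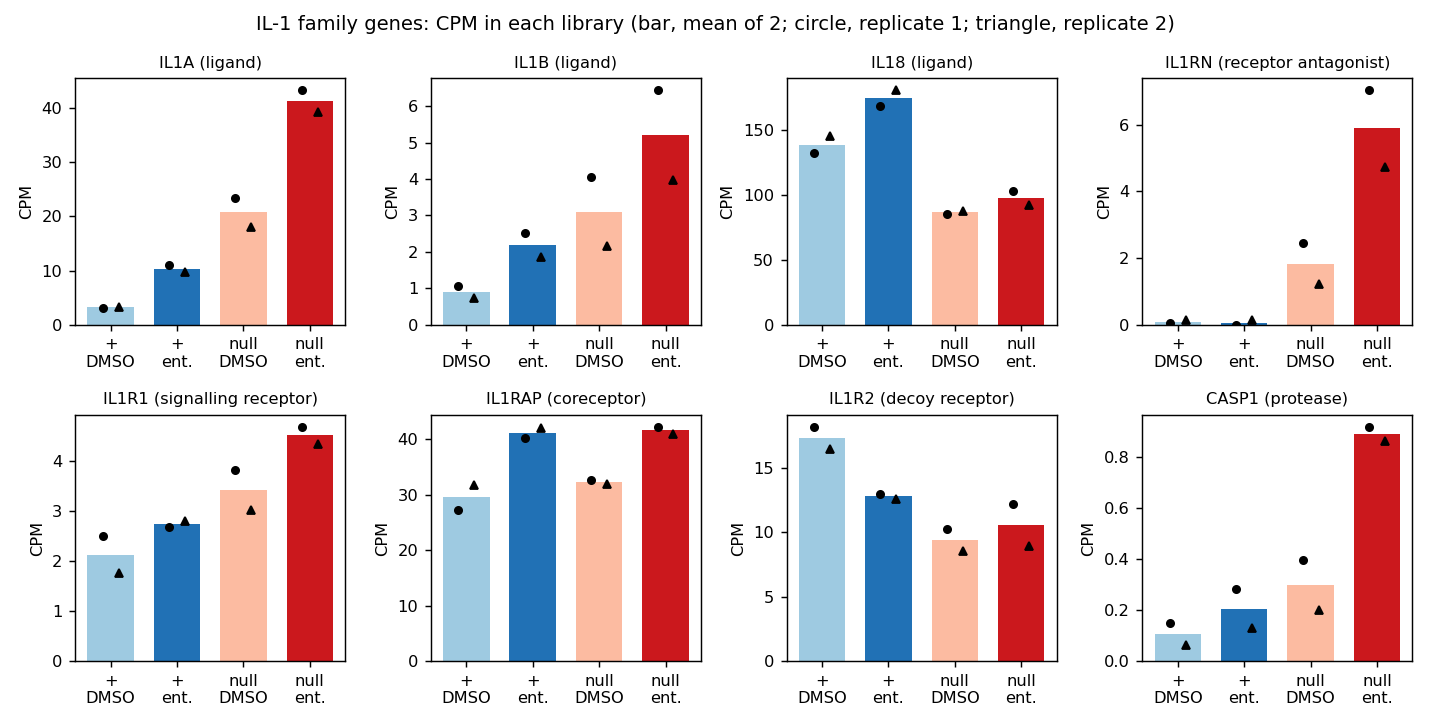
Level in CPM of each of the 8 genes in each library, 1 panel per gene with its own axis starting at 0, where bars are means of 2 libraries, circles replicate 1 and triangles replicate 2 ("+" is BRCA1+, "null" is BRCA1-null, "ent." is entinostat). The IL1A points climb from 3.10 and 3.31 CPM in BRCA1+ DMSO to 43.3 and 39.2 CPM in BRCA1-null entinostat, the IL18 points are lower in both BRCA1-null groups, and the IL1RN points are near 0 in both BRCA1+ groups.

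Among the ligands, IL1A, the alarmin form of IL-1 that is active without cleavage, alone was called in all 4 comparisons. The BRCA1+ DMSO libraries held 3.10 and 3.31 CPM, the BRCA1+ entinostat libraries 11.1 and 9.66 CPM, the BRCA1-null DMSO libraries 23.4 and 18.0 CPM and the BRCA1-null entinostat libraries 43.3 and 39.2 CPM. No 2 groups overlapped, which also held for IL18. The highest BRCA1+ library for IL1A, an entinostat library, was below the lowest BRCA1-null library. IL1A was 6.42-fold higher in BRCA1-null than in BRCA1+ cells in DMSO (log2 fold change 2.68 ± 0.17, SE) and 4.01-fold higher in entinostat (2.00 ± 0.14). With entinostat it rose 3.20-fold in BRCA1+ cells (1.68 ± 0.19) and 2.00-fold in BRCA1-null cells (1.00 ± 0.12). All 4 differences were called, and they stayed called in every alternative fit. In bulk RNA, as here, a change in the number of expressing cells and in the RNA per cell cannot be told apart.

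IL1B, a ligand that needs cleavage for activity, was lower than IL1A per length in every library. The BRCA1+ DMSO libraries held 1.05 and 0.741 CPM, the BRCA1+ entinostat libraries 2.52 and 1.85 CPM, the BRCA1-null DMSO libraries 4.04 and 2.17 CPM and the BRCA1-null entinostat libraries 6.44 and 3.97 CPM. The lines did not overlap within a treatment, but in BRCA1-null cells 1 DMSO library lay above 1 entinostat library. IL1B was 3.43-fold higher in BRCA1-null cells in DMSO (log2 1.78 ± 0.45, adjusted p = 0.0115, edgeR) and 2.47-fold higher in entinostat (1.30 ± 0.35, adjusted p = 0.0154). In DMSO the call was lost without BRCA1-null replicate 1 (log2 1.31, adjusted p = 0.0501) or without BRCA1+ replicate 2 (1.53, 0.0849), and in entinostat without BRCA1-null replicate 1 (0.90, 0.111) or without BRCA1+ replicate 2 (1.05, 0.138). The entinostat differences, log2 1.27 ± 0.51 in BRCA1+ cells (adjusted p = 0.134) and 0.79 ± 0.31 in BRCA1-null cells (0.133), did not pass the test. In BRCA1+ cells the DESeq2 test called it (adjusted p = 0.0122), as did the fit to the groups compared alone (0.0274), and with a replicate block it was called in both lines (adjusted p = 0.00516 for BRCA1+ and 0.00740 for BRCA1-null, edgeR).

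IL18 went the other way between the lines. The BRCA1+ DMSO libraries held 132 and 145 CPM, the BRCA1+ entinostat libraries 168 and 181 CPM, the BRCA1-null DMSO libraries 85.4 and 87.7 CPM and the BRCA1-null entinostat libraries 103 and 92.5 CPM. All 4 BRCA1+ libraries lay above all 4 BRCA1-null libraries. IL18 was 1.60-fold lower in BRCA1-null cells in DMSO (log2 -0.68 ± 0.07, adjusted p = 1.20e-04, edgeR) and 1.78-fold lower in entinostat (-0.83 ± 0.07, adjusted p = 4.10e-05), and both calls held in every alternative fit. Entinostat raised it 1.26-fold in BRCA1+ cells (0.33 ± 0.07, adjusted p = 0.0202), a call that was lost without BRCA1+ DMSO replicate 1 (0.107), entinostat replicate 1 (0.0530) or entinostat replicate 2 (0.144). In BRCA1-null cells the difference was 0.18 ± 0.08 (adjusted p = 0.164).

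IL1RN, the antagonist, was close to the floor in BRCA1+ cells and measurable in BRCA1-null cells. The BRCA1+ DMSO libraries held 2 and 6 counts (at most 0.131 CPM), the BRCA1+ entinostat libraries 0 and 6 counts (at most 0.129 CPM), the BRCA1-null DMSO libraries 111 and 66 counts (2.44 and 1.21 CPM) and the BRCA1-null entinostat libraries 330 and 198 counts (7.04 and 4.74 CPM). Every BRCA1-null library lay above every BRCA1+ library. The fitted difference between the lines was 19.1-fold in DMSO (log2 4.26 ± 0.79, adjusted p = 0.00205, edgeR) and 77.3-fold in entinostat (6.27 ± 0.64, adjusted p = 6.05e-05), and it rests on 8 and 6 counts in the BRCA1+ groups. It became log2 5.15 in DMSO without BRCA1+ replicate 2 and 5.51 in entinostat without BRCA1+ replicate 1, and it stayed called in both.

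In BRCA1-null cells entinostat raised IL1RN 3.33-fold (log2 1.74 ± 0.31, adjusted p = 0.00959, edgeR). The call was lost without BRCA1-null entinostat replicate 1 (adjusted p = 0.0671), without BRCA1-null DMSO replicate 2 (0.0655) and in the fit to the 2 groups alone (0.0520). In BRCA1+ cells the difference was -0.28 ± 1.81 (adjusted p = 0.945), so that a change was not detectable at this depth.

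The receptors differed among themselves. IL1R1, the signalling receptor, held 2.50 and 1.76 CPM in BRCA1+ DMSO, 2.68 and 2.80 in BRCA1+ entinostat, 3.82 and 3.04 in the BRCA1-null DMSO libraries and 4.69 and 4.36 in the BRCA1-null entinostat libraries. All 4 BRCA1-null libraries lay above all 4 BRCA1+ libraries. It was 1.61-fold higher in BRCA1-null cells in DMSO (log2 0.69 ± 0.21, adjusted p = 0.0277, edgeR) and 1.65-fold higher in entinostat (0.72 ± 0.20, adjusted p = 0.0177). The DMSO call was lost without BRCA1-null replicate 1 (0.54, adjusted p = 0.112), without BRCA1+ replicate 2 (0.44, 0.208) and in the fit to the 2 groups alone (0.0574). The entinostat call was lost without BRCA1+ replicate 1 (0.0792), BRCA1+ replicate 2 (0.0925) or BRCA1-null replicate 1 (0.0809). Entinostat differences were 0.38 ± 0.23 in BRCA1+ cells (adjusted p = 0.324) and 0.41 ± 0.18 in BRCA1-null cells (0.176).

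IL1R2, the decoy receptor, was higher per length than IL1R1 in every library. It held 18.2 and 16.4 CPM in BRCA1+ DMSO, 12.9 and 12.6 in BRCA1+ entinostat, 10.3 and 8.57 in the BRCA1-null DMSO libraries and 12.2 and 8.93 in the BRCA1-null entinostat libraries. The BRCA1+ DMSO libraries were the highest, and the other 3 groups lay between 8.57 and 12.9 CPM. In DMSO IL1R2 was 1.84-fold lower in BRCA1-null cells (log2 -0.88 ± 0.15, adjusted p = 0.00135, edgeR), a call that held in every alternative fit. In entinostat the difference was -0.27 ± 0.16 (adjusted p = 0.209), and without BRCA1-null entinostat replicate 1 it was -0.51 and called (0.0369). Entinostat gave -0.44 ± 0.15 in BRCA1+ cells (adjusted p = 0.0808) and 0.18 ± 0.16 in BRCA1-null cells (0.513). The BRCA1+ value was called with a replicate block (0.0150), in the fit to the 2 groups alone (0.0295) and without either BRCA1-null entinostat library (0.0420 and 0.0419).

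The ratio of IL1R2 to IL1R1, both in RPKM, was 22.7 and 29.1 in BRCA1+ DMSO, 15.1 and 14.1 in BRCA1+ entinostat, 8.39 and 8.83 in the BRCA1-null DMSO libraries and 8.11 and 6.41 in the BRCA1-null entinostat libraries. No 2 groups overlapped, and decoy receptor mRNA exceeded signalling receptor mRNA per length in all 8 libraries. The ratio of IL1RN to IL1B was 0.0338 and 0.125 in BRCA1+ DMSO, 0 and 0.0495 in BRCA1+ entinostat, 0.428 and 0.397 in the BRCA1-null DMSO libraries and 0.775 and 0.846 in the BRCA1-null entinostat libraries. The antagonist was thus below IL1B per length in every library, and nearest to it in BRCA1-null entinostat. The ratio of IL1A to IL1B ranged from 1.51 to 2.67 in the BRCA1+ libraries and from 2.96 to 5.04 in the BRCA1-null libraries. These ratios carry no test.

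**Figure D2:**
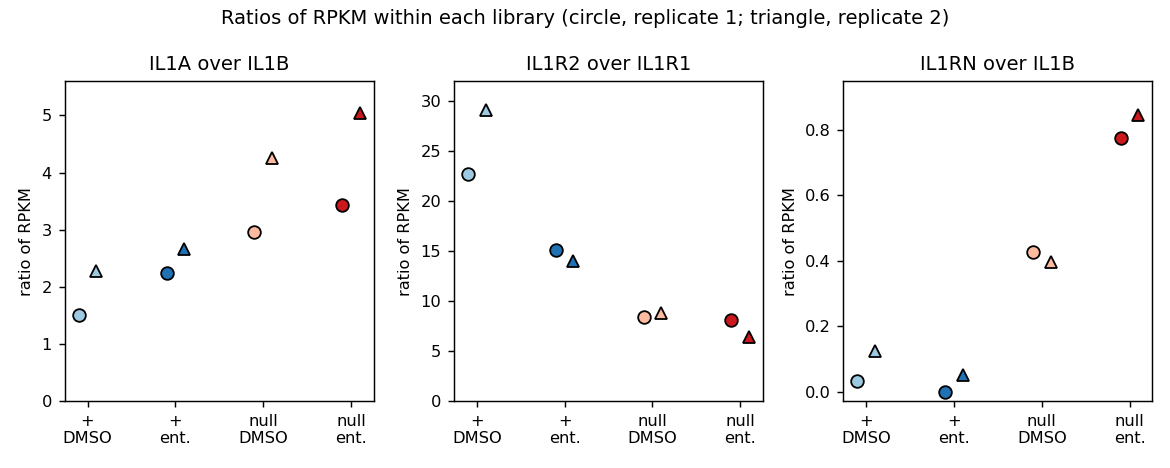
Ratios of RPKM between pairs of IL-1 family genes within each library, on linear axes, with circles for replicate 1 and triangles for replicate 2. IL1R2 over IL1R1 falls from 22.7 and 29.1 in BRCA1+ DMSO to 8.11 and 6.41 in BRCA1-null entinostat, while IL1RN over IL1B is 0.775 and 0.846 in BRCA1-null entinostat and at most 0.125 in the BRCA1+ libraries.

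IL1RAP, the coreceptor shared with the IL-33 and IL-36 receptors, followed the treatment rather than the line. It held 27.3 and 31.7 CPM in BRCA1+ DMSO, 32.6 and 31.9 in BRCA1-null DMSO, 40.2 and 42.0 in BRCA1+ entinostat and 42.2 and 40.9 in BRCA1-null entinostat. All 4 entinostat libraries lay above all 4 DMSO libraries, and the lines overlapped in entinostat. It rose 1.39-fold with entinostat in BRCA1+ cells (log2 0.48 ± 0.08, adjusted p = 0.00744, edgeR) and 1.29-fold in BRCA1-null cells (0.37 ± 0.08, adjusted p = 0.0248). The BRCA1+ call was lost without BRCA1+ entinostat replicate 2 (0.0703), and the BRCA1-null call was lost in the fit to the 2 groups alone (0.0518) and without any 1 of the 4 BRCA1-null libraries (0.0698 to 0.122). The line differences were 0.13 ± 0.08 in DMSO (adjusted p = 0.253) and 0.01 ± 0.08 in entinostat (0.913).

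CASP1, the protease that matures IL-1 beta and IL-18, was at or next to the bottom of the order in every group. The counts were 6 and 3 in BRCA1+ DMSO, 9 and 6 in BRCA1+ entinostat, 18 and 11 in the BRCA1-null DMSO libraries and 43 and 36 in the BRCA1-null entinostat libraries, the last being 0.917 and 0.862 CPM. The BRCA1-null entinostat libraries were above the other 6 libraries. CASP1 was 4.64-fold higher in BRCA1-null cells in entinostat (log2 2.21 ± 0.45, adjusted p = 0.00397, edgeR), and not called without BRCA1+ entinostat replicate 2 (0.0657). It rose 3.07-fold with entinostat in BRCA1-null cells (1.62 ± 0.38, adjusted p = 0.0296), which was lost without BRCA1-null entinostat replicate 1 (0.123), DMSO replicate 2 (0.172) or entinostat replicate 2 (0.0769), with DESeq2 (0.227) and in the fit to the 2 groups alone (0.0804). The line difference in DMSO was 1.47 ± 0.65 (adjusted p = 0.0984) and the entinostat difference in BRCA1+ cells 0.87 ± 0.76 (0.504).

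Counted over the 8 genes, 6 were called between the lines in DMSO, where 42.2% of all tested genes were called: IL1A, IL1B, IL1RN and IL1R1 were higher in BRCA1-null cells (21.1% of all genes were) and IL18 and IL1R2 lower (21%). In entinostat 6 were called against 39.4% of all genes, namely IL1A, IL1B, IL1RN, IL1R1 and CASP1 as higher (20.5%) and IL18 as lower (18.9%). The median log2 difference of the 8 genes was 1.08 in DMSO and 1.01 in entinostat, and that of all tested genes was 0.01 and 0.02. The libraries of the 2 lines did not overlap for 8 of the 8 genes in DMSO and 7 in entinostat, where 70.9% and 69.5% of all tested genes did not overlap. Without BRCA1+ entinostat replicate 2 the entinostat count was 3, where 25.6% of all genes were called.

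Entinostat gave 3 calls in BRCA1+ cells (IL1A, IL18 and IL1RAP, all higher, with 14.1% of all tested genes called, 8.13% as higher and 6% as lower) and 4 in BRCA1-null cells (IL1A, IL1RN, IL1RAP and CASP1, all higher, with 10.8%, 7.57% and 3.19%). Over all tested genes in BRCA1+ cells the calls were 1441 higher and 1062 lower, and 1753 higher and 665 lower with upper-quartile scaling. The medians of the 8 genes were 0.43 and 0.60, and those of all tested genes 0.00 and 0.02. The count in BRCA1+ cells was 1 without BRCA1+ entinostat replicate 2 and 5 with a replicate block, where 3.82% and 24.4% of all genes were called. The count in BRCA1-null cells was 1 without BRCA1-null entinostat replicate 1 or DMSO replicate 2 (2.89% and 2.94% of all genes), 2 without entinostat replicate 2 (5.35%) and 1 in the fit to the 2 groups alone (3.91%). The DMSO libraries of each line serve both the line and the entinostat comparison, so the comparisons are not independent of each other.

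Whether the entinostat difference itself differed between the lines was tested with the interaction, in which 0 of the 8 genes and 0 of all 17714 genes (0%) were called by edgeR. DESeq2 called 9 genes and the edgeR fit with a replicate block 1, none of them among the 8. At an unadjusted p under 0.05 there were 827 genes, among them 2 of the 8. The rise of IL1A was smaller in BRCA1-null than in BRCA1+ cells (log2 -0.68 ± 0.23, adjusted p = 0.967, edgeR), and IL1R2 gave 0.61 ± 0.21 (adjusted p = 0.967, edgeR). Neither passed the correction.

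**Figure D3:**
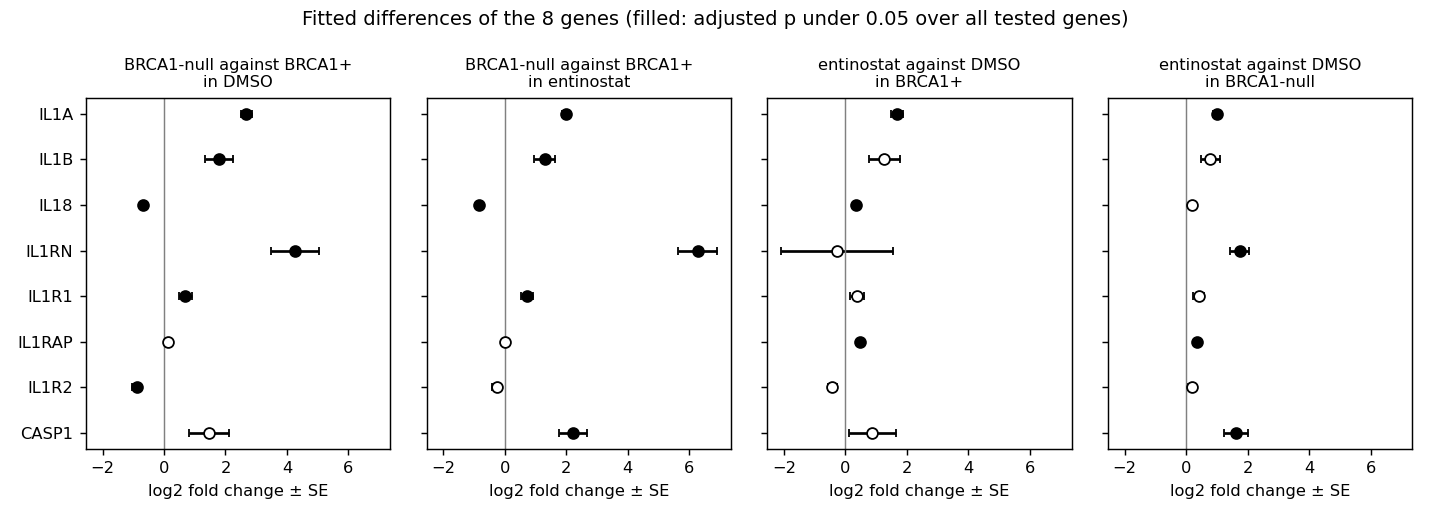
Fitted log2 fold changes of the 8 genes with standard errors in the 4 comparisons, filled where the adjusted p over all tested genes was under 0.05. IL1A is right of 0 and filled in all 4 panels, IL18 is left of 0 in both line comparisons, and the wide bar of IL1RN in BRCA1+ cells (-0.28 ± 1.81) rests on counts of 0 to 6.

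Along the ligand cluster, IL1A and IL1B were separated by 44365 bases, and the genes between IL1B and IL1RN were close to silent. IL37, IL36G, IL36A, IL36B and IL1F10 had at most 5 counts in any library and did not pass the filter. IL36RN, the antagonist of the IL-36 receptor, had 11 and 13 counts in BRCA1+ DMSO, 11 and 23 in BRCA1+ entinostat, 0 and 1 in the BRCA1-null DMSO libraries and 7 and 2 in the BRCA1-null entinostat libraries. It was thus lower in BRCA1-null cells, opposite in direction to IL1RN, which lies 53149 bases away. The ratio in DMSO was 27.9 with a counting interval of 4.55 to 1148 (adjusted p = 0.00353, edgeR), and in entinostat the log2 fold change was -2.10 ± 0.55 (adjusted p = 0.0126), where the call was lost with DESeq2 and without BRCA1+ replicate 2 or BRCA1-null replicate 2 (adjusted p up to 0.130). The size rested on few counts, being log2 -3.91 in DMSO and -3.18 in entinostat without BRCA1-null replicate 1, both still called. The outer neighbour CKAP2L, a mitotic spindle gene 9237 bases from IL1A, differed by log2 0.03 between the lines in DMSO (adjusted p = 0.904), and PSD4, 39966 bases from IL1RN, by 0.50 (0.00339).

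In the receptor cluster the genes downstream of IL1R1 were higher in BRCA1-null cells as well. IL1RL1, the IL-33 receptor, held 1.60 and 1.26 CPM in BRCA1+ DMSO and 16.4 and 12.8 CPM in BRCA1-null DMSO, and was 10.2-fold higher (log2 3.35 ± 0.25, adjusted p = 1.32e-05, edgeR). In entinostat it held 1.95 and 2.22 CPM in BRCA1+ cells and 21.8 and 16.3 CPM in BRCA1-null cells (log2 3.18 ± 0.23, adjusted p = 1.21e-05). IL18R1, the ligand-binding chain of the IL-18 receptor, was higher by 1.91 ± 0.43 and 1.90 ± 0.32, and IL1RL2, the IL-36 receptor, by 1.16 ± 0.23 and 0.93 ± 0.22, in DMSO and entinostat. The IL18R1 call in DMSO was lost without BRCA1+ DMSO replicate 2 (0.0641) and the IL1RL2 call in entinostat without BRCA1+ entinostat replicate 2 (0.110). IL18R1 also rose with entinostat in BRCA1-null cells (1.04 ± 0.26, adjusted p = 0.0390, edgeR). That call was ended by 6 of the 8 left-out libraries (log2 0.75 to 1.29 with 1 library left out). The mean of IL18R1 rose from 1.20 to 2.41 CPM there, and from 0.320 to 0.649 CPM in BRCA1+ cells, where it was not called. IL18RAP, the second chain of that receptor, had 0 or 1 count in every library. IL1R2 at the near end of the cluster was lower in BRCA1-null cells in DMSO. The neighbour of CASP1, CASP4, which encodes another inflammatory caspase, was likewise higher, with a log2 difference of 0.83 in DMSO (adjusted p = 3.57e-05, edgeR) and of 1.05 ± 0.08 in entinostat (1.34e-05). Beside IL1RAP, which did not pass the test between the lines, CLDN16, a tight junction gene, was lower in the BRCA1-null libraries, with log2 differences of -0.53 ± 0.06 under DMSO (adjusted p = 1.70e-04, edgeR) and -0.66 ± 0.06 under entinostat (5.10e-05), and both calls held in every fit. The other nearest tested neighbours of the 8 genes, SDHD and TEX12 beside IL18, UTS2B beside IL1RAP, LINC01127 beside IL1R2 and GRIA4 beside CASP1, did not pass the test in DMSO (adjusted p = 0.0643 to 0.397), although LINC01127 was called lower with a replicate block (0.0160) and without BRCA1-null DMSO replicate 1 (0.00913).

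**Figure D4:**
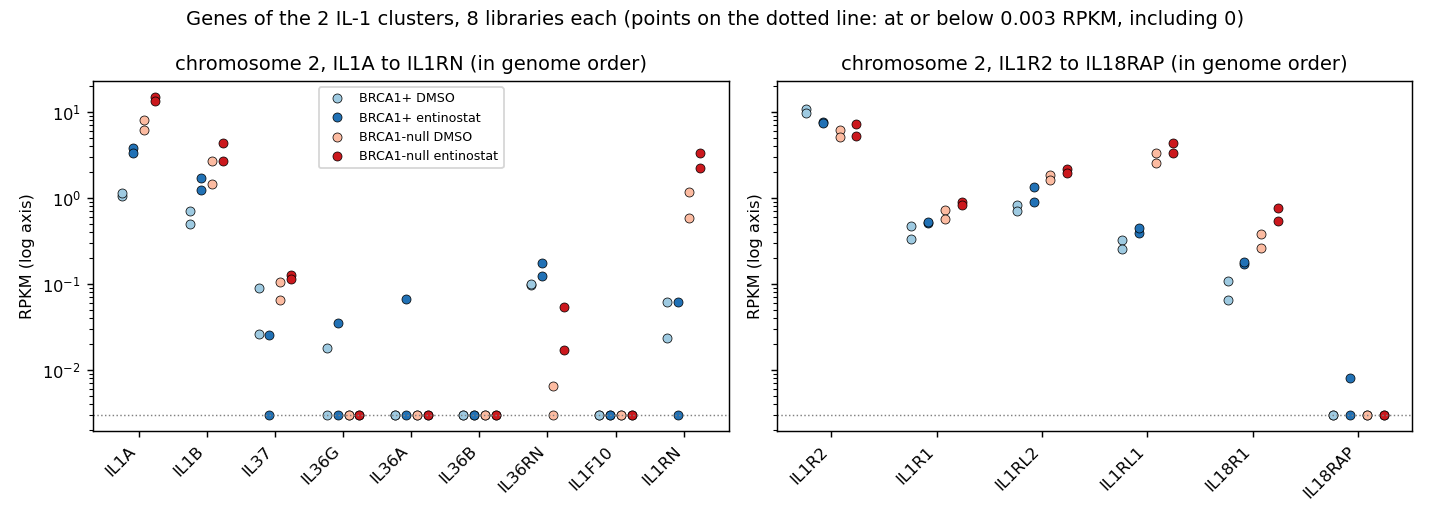
RPKM on a log axis of the genes of the ligand cluster (left) and the receptor cluster (right) of chromosome 2 in genome order, 1 point per library coloured by group, with points on the dotted line at or below it, values of 0 included. IL1A, IL1B and IL1RN are the genes of the left panel with more than 23 counts in any library, and IL36RN is lower in BRCA1-null cells, whereas in the right panel IL1RL1, IL1RL2 and IL18R1 are higher in BRCA1-null cells and IL18RAP has 0 or 1 count.

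The pathway around the 8 genes was described with 5 lists holding 84 genes, of which 66 passed the filter. The 18 others included IL33, AIM2, CASP5, CSF3 and SAA1. In the line comparison in DMSO 38 of the 66 (57.6%, with 42.2% of all tested genes called) were called, of which 30 rose and 8 fell from BRCA1+ to BRCA1-null cells, with a median log2 difference of 0.30 against 0.01 over all genes, and in entinostat 36 (54.5%, with 39.4% of all genes called), 31 higher and 5 lower. Without BRCA1+ DMSO replicate 2 the DMSO count was 24, where 30% of all genes were called. With entinostat 9 were called in the BRCA1+ line (13.6%, with 14.1% of all genes called) and 11 in the BRCA1-null line (16.7%, with 10.8% of all genes called), so the BRCA1+ share was that of the genes at large. The interaction gave 0 by edgeR, with 2 of the 66 at an unadjusted p under 0.05, as were 827 of all 17714 genes. The BRCA1+ count fell to 1, 2 and 3 without BRCA1+ entinostat replicate 1, DMSO replicate 2 and entinostat replicate 2, where 5.04%, 5.32% and 3.82% of all genes were called. The BRCA1-null count fell to 1, 1 and 6 without BRCA1-null entinostat replicate 1, DMSO replicate 2 and entinostat replicate 2, where 2.89%, 2.94% and 5.35% of all genes were called.

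Of the 21 tested genes known to respond to IL-1 through NF-kB, 16 were called between the lines in DMSO and 16 in entinostat (76.2% each, with 42.2% and 39.4% of all genes called). Each time 15 of them were higher in BRCA1-null cells (21.1% and 20.5% of all genes were), with medians of 1.06 and 1.11. Whether IL-1 or another signal to NF-kB underlies these differences was not tested. TNFAIP3, a feedback inhibitor of NF-kB, held 17.9 and 17.0 CPM in BRCA1+ DMSO and 82.9 and 68.0 CPM in BRCA1-null DMSO, and was 4.32-fold higher (log2 2.11 ± 0.12, adjusted p = 2.96e-06, edgeR). The cytokine CSF2 (2.76 ± 0.74, from 7 counts in BRCA1+ DMSO) and the chemokine CXCL2 (2.00 ± 0.62, from 9 counts) were also higher in DMSO, and by 2.87 ± 0.48 and 2.59 ± 0.44 in entinostat. Both DMSO calls were lost without either BRCA1+ DMSO library or BRCA1-null DMSO replicate 1, that of CXCL2 also without BRCA1-null DMSO replicate 2 (adjusted p up to 0.103 for CSF2 and 0.155 for CXCL2), whereas the entinostat calls held. Their size in entinostat depended on 1 library, being log2 3.87 for CSF2 and 3.74 for CXCL2 without BRCA1+ entinostat replicate 1, and 2.06 and 1.74 without BRCA1+ entinostat replicate 2. CCL2, a monocyte chemokine, was lower, by -1.52 ± 0.22 and -1.42 ± 0.21. MMP1, a collagenase, had 0 counts in both BRCA1+ entinostat libraries and 13 and 2 in the BRCA1-null ones (adjusted p = 0.0269, edgeR), and no fold is given.

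With entinostat 3 of these 21 genes rose in the BRCA1+ line (14.3%, with 14.1% of all genes called and 8.13% called higher) and 7 in the BRCA1-null line (33.3%, with 10.8% of all genes called and 7.57% called higher), and none was called lower. CXCL8, the neutrophil chemokine, held 108 and 79.0 CPM in BRCA1+ DMSO, 200 and 152 in BRCA1+ entinostat, 111 and 72.5 in the BRCA1-null DMSO libraries and 314 and 232 in the BRCA1-null entinostat libraries. It rose by log2 0.91 ± 0.23 in BRCA1+ cells (adjusted p = 0.0315, edgeR) and 1.58 ± 0.23 in BRCA1-null cells (0.00518), and its line difference in DMSO was -0.03 ± 0.23 (0.935). ICAM1, an adhesion molecule, rose by 0.69 ± 0.11 and NFKBIA, the NF-kB inhibitor, by 0.37 ± 0.07 in BRCA1+ cells. In BRCA1-null cells PTGS2, the inducible cyclooxygenase, rose by 1.68 ± 0.36 and CSF2 by 1.53 ± 0.36. Neither was called in BRCA1+ cells, where the mean of PTGS2 rose from 0.298 to 0.648 CPM and that of CSF2 from 0.0827 to 0.243 CPM. The means of ICAM1 (183 to 266 CPM) and NFKBIA (70.0 to 86.0 CPM) rose in BRCA1-null cells too. The calls of ICAM1 in BRCA1+ cells and CXCL8 in BRCA1-null cells held in every fit. Those of CXCL8 (up to 0.174) and NFKBIA (up to 0.0823) in BRCA1+ cells were lost without BRCA1+ entinostat replicate 1 or DMSO replicate 2, that of CXCL8 also without entinostat replicate 2, and those of PTGS2 (up to 0.135) and CSF2 (up to 0.171) without BRCA1-null entinostat replicate 1 or DMSO replicate 2, with DESeq2 and in the fit to the 2 groups alone, that of PTGS2 also without DMSO replicate 1.

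Of the 16 tested genes of IL-1 processing and the inflammasome, the DMSO line comparison called 9 (56.2%, with 42.2% of all genes called), of which 6 were higher, and the entinostat one 7 (43.8%, with 39.4% of all genes called), of which 6 were higher. PYCARD, the adaptor that links sensors to CASP1, held 0.575 and 0.719 CPM in BRCA1+ DMSO and 4.79 and 3.73 CPM in BRCA1-null DMSO (log2 2.70 ± 0.25, adjusted p = 4.47e-05, edgeR). The sensor NLRP3 was higher by 2.43 ± 0.43 (adjusted p = 0.00179), and both were higher in entinostat too, by 2.47 ± 0.20 and 2.80 ± 0.48. NLRP12, another member of the NLR family, was higher by 1.20 ± 0.35 in DMSO, and the sensor NLRC4 (-1.17 ± 0.32), CARD8 (-0.40 ± 0.10) and NEK7 (-0.29 ± 0.10) were lower. CARD8 was also lower in entinostat (-0.36 ± 0.10). The calls of PYCARD and NLRP3 between the lines held in every fit. That of NEK7 was lost with upper-quartile scaling, with a stricter filter on low counts and in the fit to the 2 groups alone. That of NLRC4 was lost with DESeq2. Leaving out 1 library ended those of NLRP12 (3 libraries, adjusted p up to 0.166, with log2 0.60 without BRCA1-null DMSO replicate 2), NLRC4 (3 libraries, up to 0.140), NEK7 (5 libraries, up to 0.253) and CARD8 (BRCA1+ DMSO replicate 1 in DMSO, 0.0612, and BRCA1+ replicate 1 or BRCA1-null replicate 2 in entinostat, up to 0.0933). Entinostat gave 1 call in BRCA1-null cells, PYCARD (0.74 ± 0.15, adjusted p = 0.0178, edgeR), with 10.8% of all genes called. Its mean rose from 4.26 to 7.06 CPM there, and from 0.647 to 1.26 CPM in BRCA1+ cells, where it was not called. The PYCARD call was lost with DESeq2, in the fit to the 2 groups alone and without 3 of the BRCA1-null libraries (log2 0.56 to 0.90 with 1 library left out). In BRCA1+ cells entinostat gave 0 calls, with 14.1% of all genes called. There 4 of the 16 had an unadjusted p under 0.05 (edgeR), as did 5129 of all 17714 genes.

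The 23 genes of IL-1 receptor signalling were called about as often as all genes in each line comparison, 9 (39.1%, with 42.2% of all genes called in DMSO and 39.4% in entinostat). The kinases IRAK2 (log2 1.19 ± 0.17) and IRAK1 (0.75 ± 0.06) and the NF-kB subunit RELA (0.48 ± 0.07) had the largest increases in BRCA1-null DMSO among the called genes, and the ubiquitin ligase PELI1 (-0.56 ± 0.06), TAB3 (-0.25 ± 0.08) and UBE2V1 (-0.16 ± 0.05) the 3 decreases. In entinostat IRAK1 (0.82 ± 0.06), IRAK2 (0.73 ± 0.16) and NFKB1 (0.52 ± 0.09) had the largest increases among the called genes, and PELI1 (-0.64 ± 0.06) and the kinase MAP3K7 (-0.19 ± 0.06) were lower. Entinostat gave 6 calls in BRCA1+ cells (26.1%, with 14.1% of all genes called). Of these, 4 were higher, among them IRAK3, an inhibitory member of the kinase family (1.16 ± 0.28), PELI2 (1.08 ± 0.23) and IRAK2 (0.96 ± 0.18). The 2 lower ones were ECSIT (-0.36 ± 0.08) and IRAK1 (-0.25 ± 0.06). In BRCA1-null cells entinostat gave 2 calls (8.7%, with 10.8% of all genes called), TAB2 (0.25 ± 0.06) and ECSIT (-0.31 ± 0.07). The mean of TAB2 rose from 60.0 to 71.5 CPM there, and from 54.2 to 63.6 CPM in BRCA1+ cells. In the BRCA1-null line the means of IRAK3 (1.59 to 2.89 CPM), PELI2 (1.79 to 2.41) and IRAK2 (17.5 to 24.8) also rose. That of IRAK1 fell from 748 to 660 CPM, and none of these 4 was called there. The calls of IRAK1 and PELI1 in both line comparisons, of RELA and IRAK2 in DMSO and of NFKB1 in entinostat held in every fit, and that of IRAK2 in entinostat was lost without BRCA1+ entinostat replicate 2 (adjusted p = 0.0624, edgeR). The other calls named here were each lost on leaving out any 1 of 2 or more libraries, with adjusted p-values up to 0.202 for TAB3, 0.329 for UBE2V1, 0.126 for MAP3K7, 0.159 for IRAK3, 0.127 for PELI2, 0.0624 for IRAK2, 0.111 for ECSIT and 0.171 for IRAK1 in BRCA1+ cells, and 0.123 for TAB2 and 0.136 for ECSIT in BRCA1-null cells. Upper-quartile scaling also ended the calls of TAB3, UBE2V1 and, in BRCA1+ cells, IRAK1. The stricter filter ended those of TAB3 and UBE2V1, and DESeq2 that of UBE2V1. The fit to the 2 groups alone ended those of UBE2V1 and, in BRCA1-null cells, TAB2 and ECSIT. Counts of TNFAIP3, PYCARD, CARD8, NEK7, PTGS2, MMP1, IRAK3, TAB2, UBE2V1 and ECSIT can hold reads of overlapping table entries, and those of CXCL2 reads of its close relatives, since how strand and multiply mapped reads were counted is not stated.

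**Figure D5:**
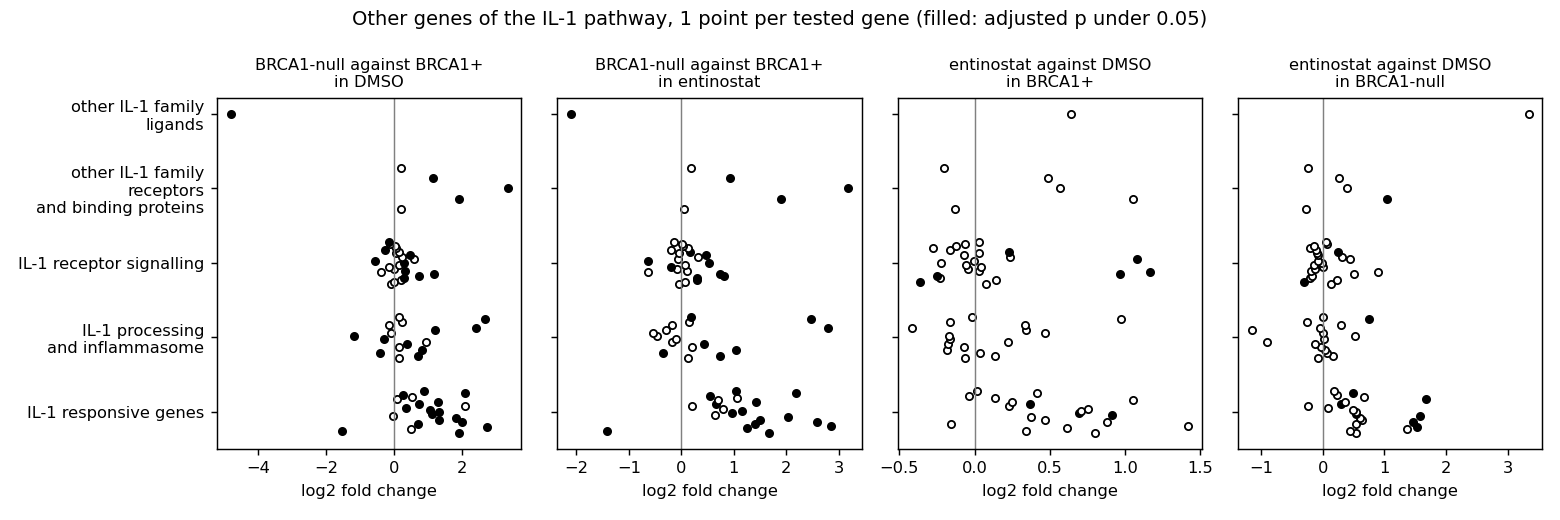
Log2 fold changes of the other IL-1 pathway genes in the 4 comparisons, 1 point per tested gene by list, filled where the adjusted p was under 0.05, with a separate axis range in each panel. In the 2 line comparisons the IL-1 responsive genes lie mostly right of 0 with CCL2 as the filled point on the left, and the point of the ligand list is IL36RN, whose fitted value rests on 1 count in BRCA1-null DMSO (MMP1 in entinostat is not drawn).

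Genes whose profile over the 8 libraries was most like that of IL1A, by Pearson's r of log2 CPM among the 13085 genes averaging 1 or more in log2 CPM, were HTR1D (r = 0.996), CX3CL1 (0.996), LCK (0.996), CNTNAP1 (0.995) and TIMP2 (0.995). LCK, a kinase best known from T cells, held 4.03 and 4.10 CPM in BRCA1+ DMSO, 15.1 and 12.3 in BRCA1+ entinostat, 23.1 and 23.4 in the BRCA1-null DMSO libraries and 54.1 and 47.5 in the BRCA1-null entinostat libraries. Those most like IL1B were AKAP13 (0.995), B2M (0.993), C3 (0.992), STEAP2 (0.989) and PMP22 (0.987). C3, the central complement component, held 6.58 and 3.99, 15.8 and 10.8, 34.3 and 18.5, and 58.4 and 30.1 CPM in the same order of groups. The 8 libraries are 4 groups of 2, so these coefficients describe the same group means and replicate differences and carry no test.

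Markers of other cell types were read in the same libraries. The 8 myeloid and leukocyte markers summed to 15.9 to 17.1 CPM in BRCA1+ DMSO, 21.7 to 24.2 in BRCA1+ entinostat, 26.7 to 29.2 in BRCA1-null DMSO and 30.8 to 39.0 in BRCA1-null entinostat, the order in which IL1A and IL1B also stood. Most of the sum was CD68, a lysosomal protein made by many cell types, with means of 9.01, 12.4, 21.1 and 28.1 CPM. TYROBP was at 0 in every library, SPI1 had 0 to 5 counts, and CD14 was lower in BRCA1-null cells (means of 0.645 CPM in DMSO and 1.63 in entinostat) than in BRCA1+ cells (2.61 and 4.61). LYZ was higher in BRCA1-null cells in DMSO (2.62 against 1.15 CPM) and at 1.49 against 1.48 CPM in entinostat. CSF1R had 1 to 4 counts in the BRCA1+ libraries, 2 and 12, from low to high, in BRCA1-null DMSO and 21 and 22 in BRCA1-null entinostat. PTPRC had means of 2.98, 4.37, 2.60 and 3.03 CPM in the 4 groups and ITGAM means of 0.0158 to 0.764 CPM. ITGAM counts, from low to high, were 3 and 62 in BRCA1+ DMSO and 3 and 67 in BRCA1-null DMSO. In entinostat they were 0 and 1 in BRCA1+ cells and 3 and 4 in BRCA1-null cells. The 3 fibroblast markers summed to at most 0.905 CPM, with DCN and LUM at 0 in every library, and the 3 endothelial markers to 4.73 to 10.3 CPM. The part of these markers in the differences of the IL-1 family was not tested.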

How the data were processed

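Poly(A) RNA of 8 libraries, 2 per group, was sequenced. Per the labels, reads were aligned to hg19 with TopHat, and per the study's methods the authors counted them per gene with NGSUtils. The deposited table holds raw counts per gene symbol, with no normalization and no pooling, and 1 entry without a gene name held 0 counts. Genes were filtered with filterByExpr of edgeR 4.0.16 (R 4.3.3) using the 4 groups and its minimum count of 10, scaled by TMM on the full library totals, and tested with glmQLFit and glmQLFTest in 1 model of 4 group means with 4 residual degrees of freedom, followed by Benjamini-Hochberg adjustment over 17714 genes. The typical biological coefficient of variation was 9.04%. Replicate libraries differed by 8.30 to 14.2 times counting noise (chi-square per degree of freedom), so none was a copy of another. RPKM used the length column of the table. Promoter windows came from RefSeq (GRCh38.p14). DESeq2 1.42.0, 2 other scalings, other filters, a replicate block, a fit to the compared groups alone and each library left out were the alternatives. The scripts were tested on simulated data.

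The 8 genes, the lists and the tests were chosen with earlier results of these data known. The genes named were the 8 members, BRCA1, the called genes of each list with the 3 largest differences in each direction whose libraries did not overlap, the 5 genes most like IL1A and IL1B, the nearest tested neighbours, and the cell type markers. A few list genes outside this rule (CXCL8 between the lines, IL18RAP, IL37, IL36G, IL36A, IL36B, IL1F10 and the unmeasured list genes), and LCK and C3 as examples, were picked after their values were seen.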

Additional observations from a re-analysis of the deposited data

Results flagged for a closer look

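Among the 8 genes and the named pathway genes, NLRP12 alone, an inflammasome-related gene of the NLR family, had libraries that moved in opposite directions in the 2 lines and in the 2 treatments. It held 0.875 and 1.13 CPM in BRCA1+ DMSO, 1.42 and 1.19 CPM in BRCA1+ entinostat, 1.54 and 3.02 CPM in BRCA1-null DMSO and 0.981 and 1.13 CPM in BRCA1-null entinostat. Every entinostat library was above the DMSO libraries in BRCA1+ cells and below them in BRCA1-null cells, and BRCA1-null libraries were above the BRCA1+ ones in DMSO and below them in entinostat. The interaction was -1.49 ± 0.54 on the log2 scale (adjusted p = 0.967, edgeR), so the difference did not pass the correction over all genes.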

How the results depend on the processing

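Of 584 alternative values of the 8 genes in the 5 comparisons, 536 kept their direction and their side of the threshold, 28 lost the call, 9 gained one and 11 changed sign, none of the 11 having been called. IL1A in the 4 comparisons, IL18 and IL1RN between the lines and IL1R2 between the lines in DMSO stayed called in every fit. Sign changes were IL1RAP between the lines in entinostat (-0.029 without BRCA1+ entinostat replicate 1 and -0.0082 without BRCA1-null entinostat replicate 1, in a range of -0.029 to 0.043 over the libraries left out), IL1RN with entinostat in BRCA1+ cells (0.48 without BRCA1+ entinostat replicate 1 and 0.62 without BRCA1+ DMSO replicate 2, in a range of -0.77 to 0.62), IL1R2 with entinostat in BRCA1-null cells (-0.070 without BRCA1-null entinostat replicate 1, in a range of -0.070 to 0.38) and the interaction of IL1R1 (-0.011 with upper-quartile factors, -0.0039 with the stricter filter, and -0.23 to 0.28 with 1 library left out). Uncalled line differences in DMSO also changed sign for CXCL8 (0.015 with upper-quartile factors, 0.0063 with the stricter filter, and -0.34 to 0.25 with 1 library left out) and CKAP2L (-0.20 without BRCA1-null replicate 1, in a range of -0.20 to 0.24), as did that of TEX12, with 0 to 12 counts (0.88 without BRCA1+ DMSO replicate 1, in a range of -1.91 to 0.88). The cause was not tested.

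When a log2 difference of 1 or more in size was also required, 3 of the 8 genes were called for the DMSO line comparison and 1 for entinostat in the BRCA1+ line, and 20, 19, 2 and 5 of the pathway genes in the 4 comparisons, where 12.5%, 10.5%, 2.91% and 3.01% of all genes were called. The fit to the compared groups alone gave 5 of the 8 genes with entinostat in BRCA1+ cells, 1 of the 8 in BRCA1-null cells and 2 pathway genes in BRCA1-null cells, with 14.4% and 3.91% of all genes called. With 1 library left out, the 8 genes gave 4 to 6 and 3 to 6 calls between the lines in DMSO and entinostat, and 1 to 4 with entinostat in either line. The pathway genes gave 24 to 38 and 25 to 37 between the lines, 1 to 10 with entinostat in BRCA1+ cells and 1 to 11 in BRCA1-null cells. In each of the 4 comparisons, every fit with 1 library left out also called a smaller share of all genes than the fit to all 8 libraries. The falls in these ranges thus came together with falls over all tested genes. Whether they were larger for the 8 genes or the pathway genes than for all genes was not tested. Of 55 calls of named pathway genes and neighbours with a size, 28 held in every fit and 27 were lost in at least 1, none with a change of sign.

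The 2 replicate numbers do not pair the libraries in the labels. The replicate differences of the groups correlated at 0.189 to 0.612, highest within a line. With a replicate block, 5 of the 8 genes and 17 pathway genes were called with entinostat in BRCA1+ cells (24.4% of all genes, against 14.1% without it), and 26 pathway genes in BRCA1-null cells (20.5% of all genes, against 10.8%). Totals of 31900158 to 53549893 counts limit what can be said of IL1RN and CASP1 in BRCA1+ cells, which had 0 to 9 counts. The stricter filter removed CASP1, and without BRCA1+ entinostat replicate 2 no size could be given for IL1RN, since the remaining library had 0 counts.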
